A study of Mus musculus and Homo sapiens with 41 samples.

Results

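Oxidative phosphorylation genes were followed in the RNA-seq of mouse granulocyte-monocyte progenitors (GMPs) and of the 416b progenitor cell line. Members were all symbols of the 2 expression tables that start with mt-Nd, mt-Co, mt-Cyt, mt-Atp, Nduf, Cox4 to Cox8, Uqcr or Atp5, together with Sdha to Sdhd. After 8 pseudogene symbols were left out, 106 members remained. Of these, 105 were among the 53756 rows of the GMP table and 88 among the 13238 genes of the 416b table, and 87 were in both. The GMP members comprised 13 genes of the mitochondrial genome and 92 nuclear genes, and all 88 members of the 416b table were nuclear. By role, the nuclear members of the GMP table were 36 subunit genes of complex I, 8 assembly factors of complex I, 4 subunit genes of complex II, 8 of complex III, 20 of complex IV and 15 of complex V. The remaining one was Atp5s, a coupling factor gene that encodes no subunit.

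GMPs are bone marrow precursors of granulocytes and monocytes. They were sorted as lineage-negative, c-Kit+, Sca-1-, Cd34+ and FcγR+ cells from lethally irradiated C57BL/6 Cd45-1 hosts that had received total bone marrow of wild type (WT) or Zbtb16lu/lu donors, so both genotypes were compared after transplantation. Zbtb16lu/lu (luxoid) is a germline loss of function of Zbtb16, which encodes the zinc finger transcription factor PLZF. The table holds 2 libraries per genotype, library 1 of each genotype sharing a date in its column name and library 2 of each carrying a date of its own. 416b is a Cd34+ murine myeloid progenitor line, and lentivirus brought in either PLZF-Flag with GFP or an Empty vector with Flag and GFP alone. GFP+ cells were sorted, and each of these conditions has 1 library. The labels list a single GMP sample per genotype, and the methods describe separate RNA extractions, more of them than the 2 libraries per genotype in the table. Which of them came from separate animals is not given in the sources used here, so the p-values measure the spread between these libraries only. The animals' ages are not given in the sources used here for these RNA-seq samples.

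The values are read counts divided by the size factor of each library, called normalized counts here. Library depth was 37562999 to 40170636 reads in GMPs, and 54529689 (Empty vector) and 19995819 reads (PLZF-Flag) in 416b cells. Zbtb16 had 705 and 828.5 normalized counts in the WT libraries and 369.1 and 269 in Zbtb16lu/lu. In 416b cells it had 382.5 in Empty vector and 2541 in PLZF-Flag. Both directions follow the labels. Cd34 had 12396 to 17633 and Mpo 477326 to 552003 over the 4 GMP libraries, and in 416b cells Cd34 had 11059 and 8823 and Gata2 12441 and 14121. Of the marker lists examined in GMPs, that of mature neutrophils had the highest median log2 fold change, 2.34. Of its 8 genes, 6 had both Zbtb16lu/lu libraries above both WT libraries (21.7% of all genes), and the summed normalized counts were 1789 (WT library 1), 1074 (WT library 2), 2349 and 4793 (Zbtb16lu/lu). Of 4 monocyte markers 3 were higher in this way (sums 15246 and 19759 against 21708 and 23431), and of 4 mast cell and basophil markers 2 were lower, against 22.1% of all genes (9165 and 9028 against 6327 and 8178). For 8 erythroid genes (summing to 207.8 to 1166) and 4 megakaryocyte genes (1522 to 4419) all genotypes overlapped, with WT library 2 highest for both lists. The 8 genes of the GMP sort and of primary granules summed to 728036 to 734878 in WT and 834833 to 844897 in Zbtb16lu/lu. Of these 8, the granule genes Elane, Prtn3 and Mpo were the 3 with both Zbtb16lu/lu libraries above both WT libraries (21.7% of all genes). For the sort markers Kit, Cd34, Fcgr3 and Fcgr2b, and for Ctsg, the genotypes overlapped. The part of these cell-state differences in the results for oxidative phosphorylation genes was not tested, and in bulk RNA fewer cells of a type and less RNA per cell cannot be told apart.

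Oxidative phosphorylation is carried out at the inner mitochondrial membrane. Complexes I and II pass electrons from NADH and succinate to ubiquinone, complex III passes them to cytochrome c and complex IV to oxygen. Complexes I, III and IV pump protons, and complex V, the ATP synthase, uses the proton gradient to make ATP. Complexes I, III, IV and V are built from subunits of both genomes, whereas all subunits of complex II are nuclear. In the haematopoietic system, stem cells rely largely on glycolysis, and committed progenitors use mitochondrial respiration more.

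The comparison of mitochondrial with nuclear genes was limited by the mitochondrial rows of the tables. All 13 protein-coding mitochondrial members were listed at 0 in all 4 GMP libraries. These were the complex I genes mt-Nd1, mt-Nd2, mt-Nd3, mt-Nd4, mt-Nd4l, mt-Nd5 and mt-Nd6, the complex III gene mt-Cytb, the complex IV genes mt-Co1, mt-Co2 and mt-Co3, and the complex V genes mt-Atp6 and mt-Atp8. The 2 mitochondrial ribosomal RNAs and the 22 mitochondrial transfer RNAs were also listed at 0, so that 37 of 37 symbols of the mitochondrial genome carried no count. The 416b table has 0 rows of the mitochondrial genome. No median, ratio or test for the mitochondrial members could therefore be given, and the listed 0 cannot be read as absence of mitochondrial transcripts.

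The nuclear genome of the mouse carries copies of mitochondrial DNA, and several of these copies are annotated as genes. In a search of the GRCm38 nuclear chromosomes with the mitochondrial sequence, 3 copies of at least 1000 bases and 90% identity were found. The longest lies on chromosome 1 (chr1:24611535-24616188, minus strand) and aligned over 4654 bases with positions 6390 to 11042 of the mitochondrial genome, at 99.94% identity. It differs there by 2 mismatches and 1 gap. The copies on chromosome 2 (chr2:22587288-22590534) and chromosome 4 (chr4:80002330-80005200) had 97.36% and 93.03% identity. The chromosome 1 copy holds the full length of mt-Co2, mt-Atp8, mt-Atp6, mt-Co3, mt-Nd3 and mt-Nd4l, 63.6% of mt-Nd4 and the end of mt-Co1. Only mt-Nd1 was touched by none of the 3.

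The stretches around the 2 mismatches are shown because a read that lies elsewhere in the aligned bases, away from the gap, is the same in both places. The first mismatch falls in mt-Co1 and its copy Gm29216, the second in mt-Nd3 and its copy Gm28438. Each sequence is given 5′ to 3′ on the mitochondrial plus strand, from GRCm38, and the capital marks the differing base. The gene named is the one at the capital. The second pair of stretches begins ahead of both genes, since mt-Nd3 starts at 9459 and the bounds of Gm28438 are 24612775 to 24613119.
Mitochondrial genome, 6390 to 6423, mt-Co1: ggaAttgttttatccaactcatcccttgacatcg
Chromosome 1, 24616155 to 24616188, minus strand, Gm29216: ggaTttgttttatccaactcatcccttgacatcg
Mitochondrial genome, 9431 to 9491, mt-Nd3: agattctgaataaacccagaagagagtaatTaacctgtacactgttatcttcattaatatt
Chromosome 1, 24613087 to 24613147, minus strand, Gm28438: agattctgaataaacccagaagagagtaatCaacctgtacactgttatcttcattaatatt

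In contrast to the mitochondrial rows, the pseudogenes annotated on these copies carried counts in every GMP library. Their counts were uneven, with only 232.35 to 603.74 normalized counts for Gm13341, Gm11407 and Gm11408, whereas the copies named next ranked among the most abundant rows. Gm13340, the chromosome 2 copy of mt-Co1, had 162376 and 179328 normalized counts in WT, against 149788 and 177478 in Zbtb16lu/lu. Only 7 of all rows had a higher mean. Gm29216, which spans the last 483 bases of mt-Co1, had 95695 and 116387 in WT, against 91610 and 113618 in Zbtb16lu/lu. Gm28437, the copy of mt-Co3, had 78263 and 102368 in WT, against 65836 and 86692 in Zbtb16lu/lu. Genotypes overlapped for all 3 of these cytochrome oxidase copies. The 13 pseudogenes together made 1.11 and 1.37% of the normalized counts in WT, against 1.03 and 1.22% in Zbtb16lu/lu. The 92 nuclear members together made 1.07 and 0.95% in WT, against 0.949 and 1.01% in Zbtb16lu/lu. Whether the reads on the copies came from mitochondrial transcripts was not tested, and none of the 13 pseudogenes has a row in the 416b table.

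Among the copies of complex I and complex III genes the genotypes lay further apart. Gm28439, the copy of mt-Nd4 that encodes a proton-pumping subunit, had 4440 and 5305 normalized counts in WT, against 3427 and 3845 in Zbtb16lu/lu. The log2 fold change was -0.42 ± 0.13 (SE), with an adjusted p of 0.428 in limma. Gm11410, the copy of mt-Cytb, an electron-carrying subunit of complex III, had 6818 and 8683 in WT, against 5661 and 6472 in Zbtb16lu/lu. Its log2 fold change was -0.35 ± 0.14, with an adjusted p of 0.491 in limma. In all, both Zbtb16lu/lu libraries lay below both WT libraries for 7 of the 13 copies, against 22.1% of all genes tested. These 7 are copies of mt-Nd2, mt-Nd3, mt-Nd4, mt-Nd4l, mt-Nd5, mt-Nd6 and mt-Cytb. For the copies of mt-Co1, mt-Co2, mt-Co3 and mt-Atp6 the genotypes overlapped. The log2 fold change was below 0 for all 13, and 7 had an unadjusted p under 0.05 in limma, against 4.37% of all genes lower. Several of the 13 lie side by side on the same copy, so they do not count as independent genes. None of the 13 passed the threshold, and the smallest adjusted p was 0.428. The log2 ratio of the summed copies to the summed nuclear members was 0.06 and 0.53 in WT, against 0.12 and 0.28 in Zbtb16lu/lu. The mean difference was -0.10, with p = 1 in a two-sided exact permutation test over libraries. With 2 against 2 libraries that test cannot give a p under 0.333, so it has no bearing on whether the ratio differed.

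**Figure D1:**
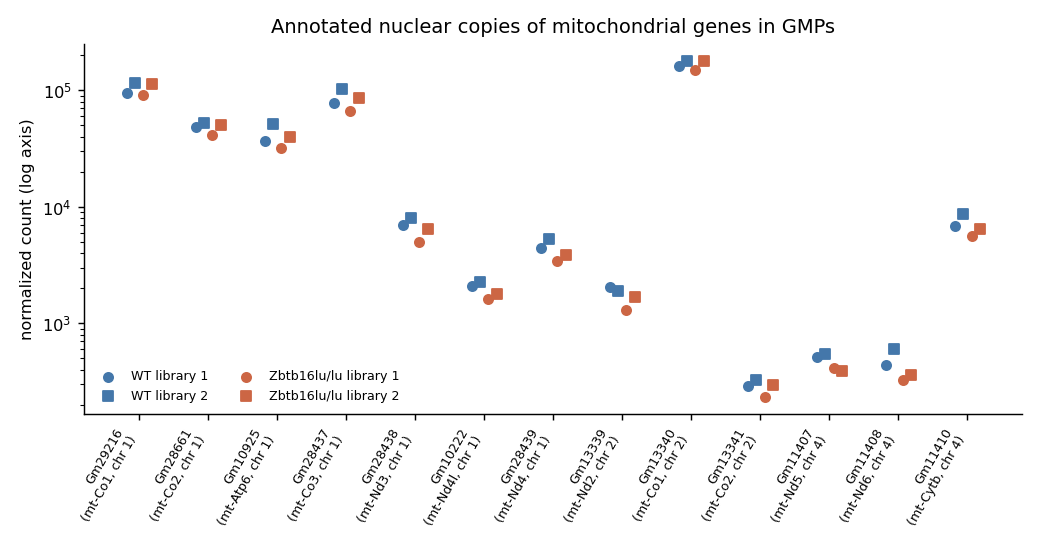
Normalized counts (log axis) of the 13 pseudogenes annotated on nuclear copies of mitochondrial DNA, with 1 point for each of the 4 GMP libraries and the mitochondrial gene and chromosome of each copy in brackets. The mt-Co1 copy Gm13340 is highest at 149788 to 179328, whereas the mitochondrial genes themselves are listed at 0 and are not drawn.

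To ask whether loss of PLZF changed nuclear oxidative phosphorylation genes, Zbtb16lu/lu GMPs were compared with WT. Of the 92 nuclear members, 90 had at least 10 normalized counts in at least 2 libraries and were tested. Cox7b2, listed at 0 in all libraries, and Cox8c, listed at 0.994 in 1 library and at 0 in the others, were not tested. Both encode testis-type subunits of complex IV. The median log2 fold change of the 90 was -0.01, as was that of all 20531 genes tested, and 43 members lay above 0 and 47 below 0. At the study's threshold of 0.08, 0 members were called by limma with Benjamini-Hochberg adjustment over all genes, as were 0% of all genes. Zbtb16 itself was not called, at a log2 fold change of -1.28 ± 0.20 and an adjusted p of 0.299 in limma. That was the smallest adjusted p over all genes to this rounding, so the count of 0 does not show that members were unchanged. At an unadjusted p under 0.05, 0 members were higher, against 5.5% of all genes. One was lower, against 4.37% of all genes. edgeR's quasi-likelihood test and the DESeq2 Wald test on the recovered reads also called 0 members. DESeq2 called 198 genes, or 1.34% of all genes with an adjusted p, so the number of genes called at this threshold depended on the test.

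The libraries of a genotype also differed from each other. The median absolute log2 difference between the WT libraries was 0.26 over the members, and that between the Zbtb16lu/lu libraries 0.16. The median absolute log2 fold change between genotypes, which compares means of 2 libraries and so carries less noise than single libraries do, was 0.12. Over all genes tested, these values were 0.28, 0.15 and 0.21. WT library 1 exceeded WT library 2 for 77 of 90 members, against 51% of all genes, with a median log2 difference (library 2 minus library 1) of -0.23 for the members and -0.01 for all genes. In Zbtb16lu/lu, library 1 exceeded library 2 for 12 of 90, against 9398 of all 20531 genes. Across the 90 members, this WT difference had a Spearman correlation of -0.42 with transcript GC content and 0.15 with transcript length, within 1 pair of libraries. Over 20103 genes with a length, these were -0.34 and 0.09. Members had shorter transcripts than genes at large, with a median of 870 against 2159 bases, and a GC content of 51.1 against 49.7%. The part of base composition in the library difference was not tested.

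The sign of the comparison depended on which libraries were compared. Between the libraries that share a date, the median log2 difference of the members (Zbtb16lu/lu minus WT) was -0.19. Between the remaining library of each genotype, which share no date or label, it was 0.17. When WT library 1 was left out, 18 members were called, 16 of them higher, with 22.7% of all genes called. When WT library 2 was left out, 7 were called, 6 of them lower, with 13.4% of all genes called. In these fits a single WT library stands for its genotype and is taken to vary like the Zbtb16lu/lu libraries. Ndufaf4, an assembly factor of complex I, was the member called in both, at -0.34 and -0.56 (adjusted p = 0.0495 and 0.000427 in limma).

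**Figure D2:**
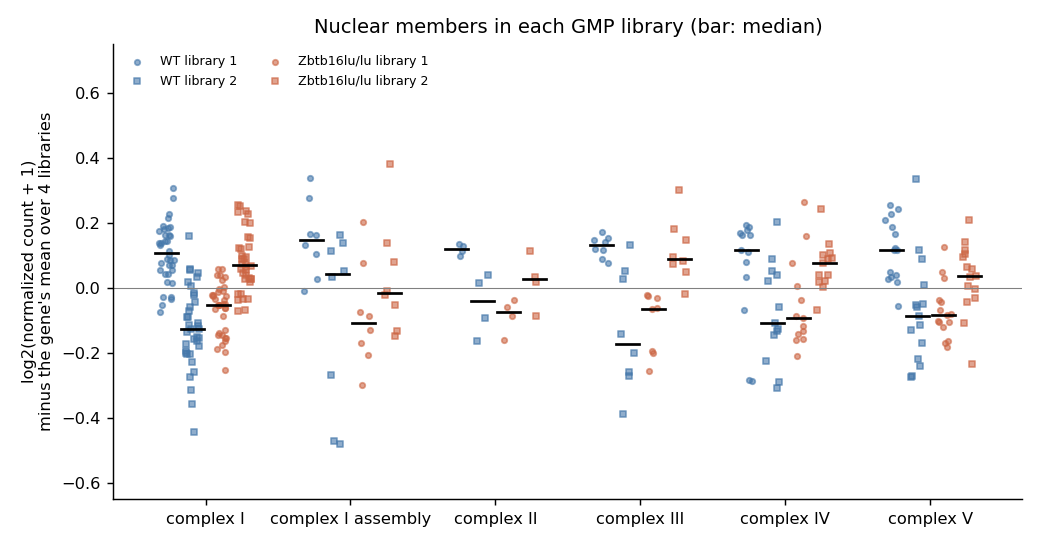
Log2(normalized count + 1) of each nuclear member with a mean of at least 100, minus its mean over the 4 GMP libraries, by complex (points: genes, bars: medians, Atp5s not drawn). WT library 1 sits above WT library 2 for 77 of the 90 members tested, and Zbtb16lu/lu library 2 above library 1 for most.

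Members whose genotypes did not overlap numbered 6 with both Zbtb16lu/lu libraries above both WT libraries (6.67%, against 21.7% of all genes). Those with both below numbered 16 (17.8%, against 22.1% of all genes). With this scaling both shares were below those of genes at large. Scaled by totals without the histone genes and the 10 most abundant genes, 13 were higher (23.6% of all genes) and 18 lower (19.8% of all genes). With the trend on GC content and length removed, 4 were higher (19.1% of all genes) and 23 lower (21.7% of all genes), so the lower share no longer lay below that of all genes in these settings. Among the 61 members with no near-identical copy elsewhere in the genome, they were 4 (6.56%) and 9 (14.8%). By group, the 8 complex I assembly factors held 2 of the higher and 5 of the lower members, and the 36 complex I subunits 3 and 5. Complex II held 0 and 1 of 4, complex III 0 and 2 of 8, complex IV 1 and 1 of 18, and complex V 0 and 2 of 15. Median log2 fold changes were 0.00 for complex I, -0.16 for its assembly factors, -0.07 for complex II, 0.04 for complex III, 0.07 for complex IV and -0.07 for complex V.

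The complex I assembly factors, which build the complex but are absent from the finished enzyme, spread widest. Ndufaf4 had 1690 and 1444 normalized counts in WT, against 1085 and 1205 in Zbtb16lu/lu. Its log2 fold change was -0.45 ± 0.14 (SE), with an unadjusted p of 0.0121 and an adjusted p of 0.428 in limma, 0.435 in edgeR and 0.231 in DESeq2. It was the member under an unadjusted p of 0.05. Ndufaf2 had 618.5 and 643.3 in WT, against 525.3 and 523.9 in Zbtb16lu/lu, a log2 fold change of -0.27 ± 0.15. Ndufaf1, which acts on the membrane arm, had 988.4 and 913.3 in WT, against 763.9 and 874.1 in Zbtb16lu/lu. Its values lay lower in both Zbtb16lu/lu libraries by a log2 fold change of -0.22 ± 0.15. Conversely, Ndufaf8 had 410.7 and 288.4 in WT, against 425.6 and 524.9 in Zbtb16lu/lu, a log2 fold change of 0.46 ± 0.22. For Ndufaf8, WT library 1 lay close to Zbtb16lu/lu library 1, so the separation was narrow. Ndufaf3 showed the same narrow gap, with 841.2 and 553.6 in WT, against 884.1 and 844 in Zbtb16lu/lu (0.34 ± 0.20). Ndufaf5 (-0.19 ± 0.16) and Ndufaf7 (-0.13 ± 0.14) were also lower in both Zbtb16lu/lu libraries. Adjusted p-values of Ndufaf1, Ndufaf2, Ndufaf3 and Ndufaf8 were 0.625, 0.579, 0.587 and 0.532 in limma.

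Among the complex I subunits, Ndufs1, the large iron-sulfur subunit of the electron entry arm, had 6835 and 6183 normalized counts in WT, against 5223 and 5849 in Zbtb16lu/lu. Its log2 fold change was -0.23 ± 0.12. Ndufa12, an accessory subunit, had 1606 and 1477 in WT, against 1249 and 1386 in Zbtb16lu/lu (-0.23 ± 0.13). Both were lower in Zbtb16lu/lu without overlap, by less than the fold seen for Ndufaf4, and copies elsewhere match 44.3% of the Ndufa12 transcript. Ndufb7, an accessory subunit of the membrane arm, had 3170 and 2401 in WT, against 3205 and 3672 in Zbtb16lu/lu (0.31 ± 0.16). Ndufb11 had 2583 and 2448 in WT, against 2714 and 3205 in Zbtb16lu/lu (0.23 ± 0.13), and Ndufa13 had 2744 and 2519 in WT, against 2888 and 3138 in Zbtb16lu/lu (0.20 ± 0.12). These 3 accessory subunits were higher in both Zbtb16lu/lu libraries, Ndufb7 only just so for library 1. The adjusted p-values of these 5 subunits lay between 0.536 and 0.597 in limma. Ndufab1, Ndufa9 and Ndufb2 were lower in both Zbtb16lu/lu libraries, at -0.22 ± 0.16, -0.12 ± 0.11 and -0.12 ± 0.13, with copies of 14.5% of the Ndufab1 and 10.1% of the Ndufb2 transcript. The transcript of Ndufb11 is matched by a near-identical copy elsewhere over 64.1% of its length, so its counts are uncertain.

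Complex II is succinate dehydrogenase, which also serves the tricarboxylic acid cycle. Sdha, the flavoprotein that oxidizes succinate, had 13886 and 13014 normalized counts in WT, against 11906 and 11916 in Zbtb16lu/lu (log2 fold change -0.17 ± 0.11, adjusted p = 0.6 in limma). It was the complex II gene without overlap, lower in both Zbtb16lu/lu libraries. Sdhb, the iron-sulfur subunit, had 4099 and 3385 in WT, against 3637 and 4098 in Zbtb16lu/lu. The membrane anchors Sdhc (4726 and 4138 against 4305 and 4514) and Sdhd (7494 and 6931 against 6142 and 6954) overlapped between genotypes as well.

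In complex III, the core gene Uqcrc2 had 9991 and 9194 normalized counts in WT, against 7730 and 8759 in Zbtb16lu/lu (log2 fold change -0.22 ± 0.12, adjusted p = 0.563 in limma). Uqcrc2 thus lay lower in both Zbtb16lu/lu libraries, and Uqcrc1, the gene of the other core subunit, overlapped with 12984 and 10161 in WT against 11470 and 12279. Uqcrb was also lower without overlap, at -0.21 ± 0.14, and copies elsewhere match 92.9% of its transcript. In complex IV, Cox7c had 463.4 and 370.3 in WT, against 505.8 and 485.7 in Zbtb16lu/lu (0.26 ± 0.18, adjusted p = 0.635 in limma). Both Zbtb16lu/lu values were higher, and copies elsewhere match 74.1% of the transcript. Cox7b, with copies of 46% of its transcript, was the complex IV gene lower in both, at -0.16 ± 0.12. In complex V, Atp5g1 and Atp5j were the 2 genes without overlap, both lower in Zbtb16lu/lu, at -0.19 ± 0.14 and -0.15 ± 0.12. Copies elsewhere match 27.7 and 22.2% of their transcripts. The catalytic core genes Atp5a1 and Atp5b overlapped. Atp5b had 64529 and 50867 in WT, against 50698 and 55344 in Zbtb16lu/lu, and Atp5a1 had 56830 and 46338 in WT, against 48301 and 51804 in Zbtb16lu/lu.

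**Figure D3:**
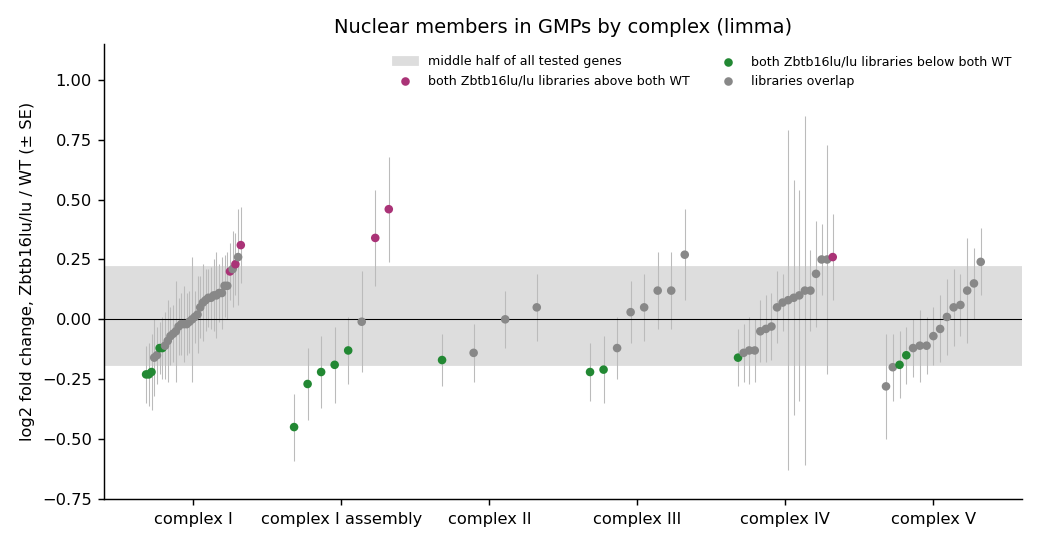
Limma log2 fold change between Zbtb16lu/lu and WT GMPs (± SE) for each tested nuclear member, by complex (Atp5s not drawn), with the interquartile range of all tested genes (-0.19 to 0.22) in grey. Coloured points mark the 6 members with both Zbtb16lu/lu libraries above both WT libraries and the 16 with both below, and Ndufaf4 (-0.45) and Ndufaf8 (0.46) lie farthest out.

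Genes that act with the respiratory chain were counted from 4 further lists, and 0 genes of any list passed the threshold in limma. The tricarboxylic acid cycle, which supplies NADH and succinate, had 13 tested enzymes, of which 12 had a log2 fold change below 0. Both Zbtb16lu/lu libraries lay below both WT libraries for 7 of them (22.1% of all genes), and above for 0 (21.7% of all genes). Dld, the shared dehydrogenase subunit of the 2-oxo acid dehydrogenase complexes, had 5227 and 4184 in WT, against 3583 and 3651 in Zbtb16lu/lu (-0.37 ± 0.13, adjusted p = 0.465 in limma). Idh3a, the catalytic subunit of NAD-dependent isocitrate dehydrogenase, had 5995 and 4936 in WT, against 4287 and 4420 in Zbtb16lu/lu (-0.32 ± 0.13, adjusted p = 0.48 in limma). These 2 genes were under an unadjusted p of 0.05, and their WT and Zbtb16lu/lu values were separate. The summed enzymes had 94859 and 82152 in WT, against 79894 and 82022 in Zbtb16lu/lu.

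Of 21 tested genes for mitochondrial transcription and replication, 11 lay lower in both Zbtb16lu/lu libraries and 2 higher, with a median log2 fold change of -0.09. Tfam, which packages mitochondrial DNA and acts in its transcription, had 2206 and 2286 in WT, against 1805 and 2009 in Zbtb16lu/lu (-0.24 ± 0.12, adjusted p = 0.555 in limma). Of 21 electron carriers and nucleotide exchangers, 5 lay lower and 1 higher. The higher one, Coq8a, a gene of ubiquinone synthesis, had 310.2 and 426.3 in WT, against 540.8 and 624.2 in Zbtb16lu/lu (0.67 ± 0.20, adjusted p = 0.422 in limma). Of 36 further assembly factors of the chain, among them Ecsit and Acad9 of complex I, 9 lay lower and 4 higher. Over all genes these shares were 22.1% lower and 21.7% higher, and those of the assembly factors and carriers were near or below them. The median log2 fold changes of these lists were -0.14 for the cycle, -0.09 for the carriers and -0.03 for the assembly factors, beside -0.01 for all genes. In 416b cells the log2 ratio of PLZF-Flag to the control reached 0.25 in either direction for 0 of 13 cycle enzymes and 0 of 21 carriers. It did so upward for 4 and downward for 1 of 21 transcription and replication genes, and for 1 each of 36 assembly factors. Over all genes, 6.58% reached the limit upward and 9.72% downward.

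Levels per length were compared between members within each table, as normalized counts per kilobase of the principal transcript scaled to a sum of 1000000 over all genes with a length. In GMPs the highest level of any member was that of Atp5b, the catalytic beta subunit of the ATP synthase, at 1032 and 830 in WT, against 776 and 811 in Zbtb16lu/lu. Atp5a1, its alpha partner, followed with a mean of 613, and Cox4i1, a regulatory subunit of complex IV, with 483. The ranges of Atp5b and Atp5a1 did not overlap between libraries. The nuclear complex V genes summed to 3012 to 3734 per library, those of complex I to 2894 to 3335, of complex IV to 2349 to 2818, of complex III to 1130 to 1380 and of complex II to 399.8 to 488.7. Members were taken by symbol, so subunit genes with other names are left out and these sums do not cover whole complexes. The 8 assembly factors of complex I summed to 120.6 to 146.6, and their median level was 15.6 against 83.2 for the complex I subunits.

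The subunits of 1 complex did not have equal levels per length. By principal transcript length, Ndufb8 was highest within complex I with a mean of 216 and Ndufab1, the mitochondrial acyl carrier protein, lowest with 4.65. Within complex II, Sdhd had a mean of 167, Sdha 131, Sdhb 99.2 and Sdhc 41.6. Complex III ranged from 245 for Uqcrh, the hinge protein, to 33.3 for Uqcrq. Among the assembly factors, Ndufaf2 was highest at 25.5 and Ndufaf4 lowest at 11.2. The order depends on the transcript chosen for a gene, since the levels had a Spearman correlation of 0.924 over the GMP members with those computed from the union of all annotated exons. With that length, Atp5b had 449 and Atp5a1 556, so their order was exchanged. Ndufb8 then had 53.8, under Ndufa2 with 145, and Uqcrh 125, under Uqcr11 with 163. Copies elsewhere match 93.2% of the Uqcrh and 92.1% of the Uqcr11 transcript, so their levels are uncertain. Cox4i1 had 274, under Cox8a with 315. Ndufaf2 had 6.68 and was lowest of the assembly factors, with Ndufaf1 highest at 20.3, so which gene leads a group was not settled except for Sdhd in complex II.

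Several members have tissue-specific forms, and in GMPs the broadly expressed form had the higher level per length. Cox4i1 had a mean of 483 in GMPs and its hypoxia-induced form Cox4i2 had 0.97. Cox6a1 had 176 and the muscle form Cox6a2 1.57, and Cox8a had 308 and the muscle form Cox8b 0.913. Cox7a2 had 164, Cox7a2l, which takes part in supercomplex assembly, 132, and the muscle form Cox7a1 2.71. Cox6b1 had 282 and the testis form Cox6b2 14.9. Ndufa4, a subunit of complex IV despite its name, had 306 and Ndufa4l2 0.342. The 3 genes for the c-ring subunit of the ATP synthase had 231 for Atp5g3, 12.7 for Atp5g1 and 7.89 for Atp5g2. Transcripts of Atp5g2 and Cox7a2l are matched by copies elsewhere over 89.2 and 99.5% of their length, so their levels are uncertain.

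Levels per length in 416b cells followed a similar order, with a Spearman correlation of 0.87 with the GMP levels over 87 members. By transcript length Atp5b was again highest, with 2584 in Empty vector and 2621 in PLZF-Flag, followed by Cox4i1 with 2395 and 2510 and Cox8a with 2280 and 2284. With the exon union length, Cox8a (3065), Atp5a1 (2056) and Cox4i1 (1830) lay above Atp5b (1779) in 416b cells. The tables were made with different library kits and list different numbers of genes, so a gene's offset between them is read only against that of other members. A single gene stood far from the common offset among members with copies. Atp5l, a subunit of the ATP synthase membrane part, had a mean of 14.4 in GMPs and 673 in 416b cells, and copies elsewhere match 91% of its transcript. The median offset (log2 GMP level minus log2 416b level) was -1.54 both for the 18 members with at least 50% of the transcript in copies and for the 58 with none. For Atp5l it was -5.55. The part of the copies in that value was not tested. Ndufa4l2, without a copy elsewhere, had an offset of -5.93, with 0.342 in GMPs and 20.9 in 416b cells.

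**Figure D4:**
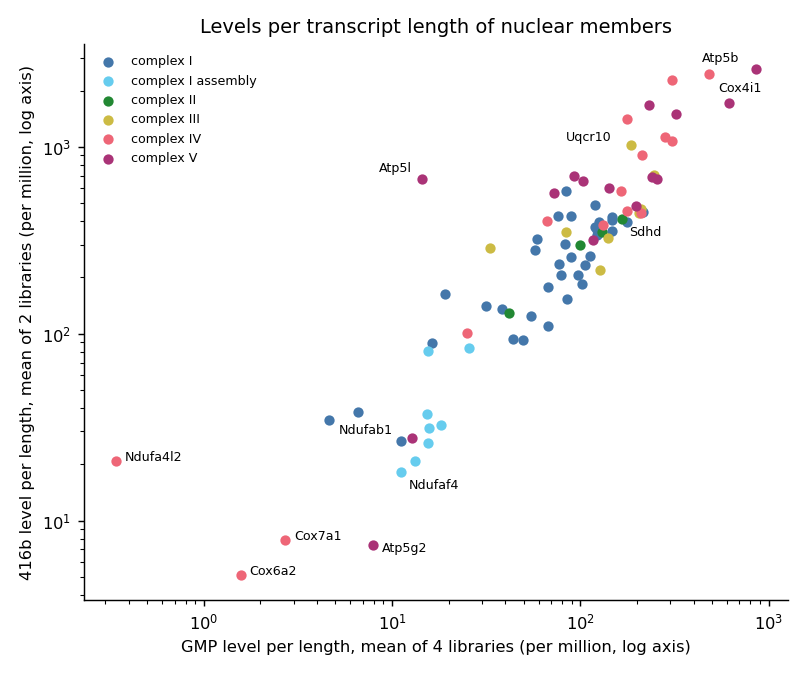
Mean level per transcript length of the nuclear members in GMPs (4 libraries) against 416b cells (2 libraries), both scaled to a sum of 1000000 on log axes and coloured by complex (Atp5s not drawn). Atp5b is highest in both with this length, the assembly factors lie low, and Atp5l and Ndufa4l2 stand off the common band.

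Finally, PLZF-Flag was compared with Empty vector in 416b cells, where each condition has 1 library, so no test between conditions was possible. Ratios are given as log2 of normalized counts after adding 1, with 95% Clopper-Pearson intervals from the recovered reads, which cover counting error only. The mean reached 10 normalized counts for all 88 members. Their median log2 ratio was 0.01, against -0.00 for all 11836 such genes, and 51 lay above 0 and 37 below. A log2 ratio of at least 0.25 was reached upward by 1 member (Cox7a1), against 6.58% of all genes, and downward by 1 (Atp5g2), against 9.72% of all genes. The intervals of 18 members lay above 0 (16.1% of all genes) and those of 18 below 0 (15.9% of all genes). Median ratios by group were 0.02 for complex I, 0.01 for its assembly factors, 0.01 for complex II, 0.03 for complex III, -0.02 for complex IV and 0.01 for complex V.

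The members at the limit had few reads. Atp5g2 had 177 and 41 reads (Empty vector, PLZF-Flag), or 107.1 and 67.75 normalized counts, giving a log2 ratio of -0.65 (-1.19 to -0.16). Cox7a1 had 73 and 34 reads, and with an interval of -0.29 to 0.95 around its ratio of 0.34 no difference was detectable at this depth. Among members with a mean of at least 100, Ndufs5, a complex I subunit, was highest, with 1642 normalized counts in Empty vector and 1950 in PLZF-Flag. Its log2 ratio was 0.25 (0.15 to 0.35), just under the limit. Ndufa5 (0.15), Cox6a1 (0.14) and Ndufs3 (0.13) followed, each with an interval above 0. Copies elsewhere match 64.3% of the Ndufs5 and 84.4% of the Ndufs3 transcript, so their counts are uncertain. The lowest was Atp5sl, which encodes no subunit of the synthase, with 977.4 and 836.9 normalized counts and a log2 ratio of -0.22 (-0.37 to -0.08). Atp5l had 6334 and 5555 (-0.19, interval -0.25 to -0.13). Ndufaf3 and Ndufaf4 both had ratios of -0.18, with intervals from -0.36 to -0.01 and from -0.32 to -0.05.

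For the abundant core genes the reads allowed narrow intervals. Atp5b had 80203 normalized counts with the Empty vector and 81780 with PLZF-Flag, so that the log2 ratio was 0.03 (0.01 to 0.04), and Atp5a1 had 68744 and 69771 (0.02, interval 0.01 to 0.04). Cox4i1 had 29678 and 31269 (0.08, interval 0.05 to 0.10), and Sdha 16190 and 16967 (0.07, interval 0.03 to 0.10). Whether such differences exceed the spread between cultures cannot be told from 1 library per condition. Ndufaf4 had lower values in PLZF-Flag 416b cells and in Zbtb16lu/lu GMPs, where PLZF is raised and lost, respectively. Ndufaf3 had a log2 ratio of -0.18 in 416b cells and a log2 fold change of 0.34 in GMPs. Ndufaf8 had 0.02 in 416b cells and 0.46 in GMPs. Over the 87 members with values in both, 28 lay above 0 in both tables, 24 below 0 in both and 35 on opposite sides, with a Spearman correlation of 0.14.

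**Figure D5:**
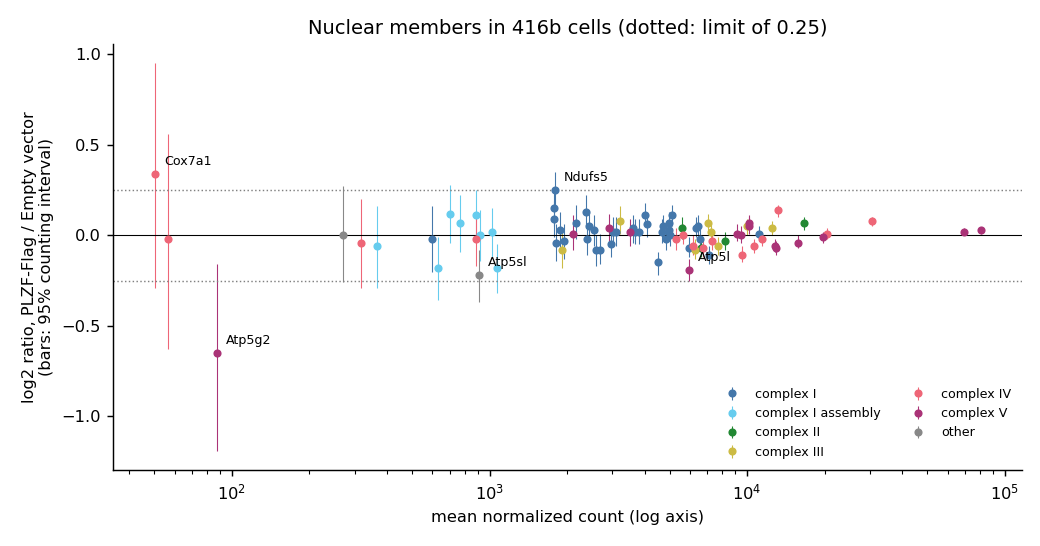
Log2 ratio (PLZF-Flag over Empty vector) against mean normalized count (log axis) for the 88 nuclear members in 416b cells, with 95% counting intervals and dotted lines at the limit of 0.25. All but Cox7a1 (0.34) and Atp5g2 (-0.65) lie within the limit, and the intervals widen at low counts.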

How the data were processed

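RNA-seq of GMPs (2 libraries per genotype) and of 416b cells (1 library per condition) was used. GMP libraries were made with a stranded total RNA kit with ribosomal depletion, 416b libraries with an ultra-low-input kit. According to the methods and the submitters' processing notes, alignment to mm10 by the authors used subread-align, featureCounts 1.5.0 assigned reads to genes, and DESeq2 size factors then scaled the counts. The deposited signal values are therefore normalized counts, and the GMP column names speak of uniquely mapped reads. Such filtering can remove reads that fit several places. The authors' log2 values (2 per-library columns for 416b cells), genotype means, fold changes and p-values were not used. Other assays of the series were not analysed here.

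Reads were recovered as multiples of the value of 1 read. All GMP values (100%) were whole within 0.001, and 84.8 and 85.5% of the 416b values within 0.01. GMP genotypes were compared with limma 3.58.1 (intensity trend) on log2(normalized count + 1) for the genes with at least 10 in at least 2 libraries, with Benjamini-Hochberg adjustment over all genes and a threshold of 0.08. edgeR 4.0.16 and DESeq2 1.42.0 were run on the recovered reads. Fold changes on this scale understate those of low genes. Genes, transcripts and lengths came from GENCODE M21 (105 of 106 members matched; 96.9% of GMP and 98.1% of 416b symbols). Copies were sought with BLAST 2.17.0 at 95% identity over at least 100 bases, leaving out stretches with over 20 hits. Transcript length in place of exon union, and the restriction to members without copies, were chosen after seeing the data. The fits were tested on simulated data. Python 3.11.15, numpy 2.4.6, pandas 2.3.3, scipy 1.17.1 and R 4.3.3 were used.

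Members and lists were chosen with earlier results of these data known. Named genes were the 13 mitochondrial members, the 6 largest separations in each direction between GMP genotypes and the 4 highest and lowest 416b ratios among members with a mean of at least 100, the highest and lowest level in each complex, paralog groups and Sdha to Sdhd. Copy genes, the other members without overlap, core genes such as Uqcrc1 and genes of the pathway and marker lists were named after their values were seen. The planned results on mitochondrial members had no values above 0.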

Additional observations from a re-analysis of the deposited data

Results flagged for a closer look

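The annotated nuclear copies of mitochondrial genes lie outside the members and carried counts in every GMP library while the mitochondrial genes were listed at 0. The lowest normalized count over the 4 libraries was 149788 for Gm13340 and 91610 for Gm29216 (mt-Co1), 65836 for Gm28437 (mt-Co3), 41263 for Gm28661 and 232.35 for Gm13341 (mt-Co2), and 31702 for Gm10925 (mt-Atp6). For copies of complex I genes it was 5034.5 for Gm28438 (mt-Nd3), 3426.6 for Gm28439 (mt-Nd4), 1628.5 for Gm10222 (mt-Nd4l), 1307.7 for Gm13339 (mt-Nd2), 388.39 for Gm11407 (mt-Nd5) and 327.96 for Gm11408 (mt-Nd6). For Gm11410, the copy of mt-Cytb, it was 5660.6.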

How the results depend on the processing

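The count of 0 called members was the same without a filter, with means of 100 or more, with a pseudocount of 0.1 or 10, both other scalings, the GC and length trend removed, no intensity trend, a threshold of 0.05, edgeR and DESeq2. Leaving out 1 library gave 0 to 18 called members, 18 without WT library 1, 7 without WT library 2 and 0 without either Zbtb16lu/lu library. The median log2 fold change of the nuclear members ranged from -0.13 to 0.11 when 1 library was left out and from -0.07 to 0.02 under the other alternatives, so its sign changed with the libraries and the scaling. Members with both Zbtb16lu/lu libraries higher numbered 13 in place of 6 when scaled by totals without the histone and 10 most abundant genes. Those lower numbered 9 of the 61 members without copies elsewhere (14.8%, added after seeing the data), in place of 16 of 90 (17.8%). That count thus fell mostly with the size of the set. The other alternatives gave 4 to 6 higher and 16 to 23 lower. The cause of the changes with scaling was not tested. In 416b cells, Cox7a1 and Atp5g2 fell out with a mean of at least 100, leaving 0 members at the limit in either direction, and a limit of 0.5 left 0 higher and 1 lower. No alternative could be run for the mitochondrial members, which had no values. No paired analysis was possible because column names hold no replicate number and only 1 date is shared between the genotypes. Leaving out a library had no counterpart in 416b cells, where depth limits the low genes: Cox7a1 rests on 73 and 34 reads.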
